A study of Mus musculus with 4 samples.

Results

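The c-Jun N-terminal kinase (JNK) and p38 cascade genes described here were 10 genes listed by name rather than by a cutoff on a measured value. They were the MAP kinase kinase kinase genes Map3k1 and Map3k7, the MAP kinase kinase genes Map2k4 and Map2k7, the MAP kinase genes Mapk8, Mapk9 and Mapk14, the AP-1 transcription factor genes Jun and Fos, and the phosphatase gene Dusp1. They were 10 of 21951 protein-coding genes in the annotation. Earlier results of these data were known at the choice, and the study names Map3k1 from comparing its ChIP-seq targets with its RNA data. Every peak in the 2 deposited lists was taken that reached the promoter, from 2000 bp before to 1000 bp after any annotated transcript start, or that lay elsewhere in the gene body. This gave 8 of 34209 peaks in the MIZ-1WT list, all at promoters, and 21 of 78357 peaks in the MIZ-1DPOZ list, of which 13 were at promoters and 8 were further inside genes.

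The lists came from chromatin immunoprecipitation and sequencing (ChIP-seq) with the H-190 antibody against MIZ-1, a zinc finger transcription factor that carries a POZ domain for protein contacts. B220+ cells of mouse spleen were used, with B220 marking B cells. The MIZ-1WT mice had intact Miz-1, and the MIZ-1DPOZ mice combined MB1-cre with floxed Miz-1, which removes the POZ domain in cells of the B lineage and leaves a truncated protein. The study's methods give a C57BL/6 background and young adult mice, and the labels say neither their age and sex nor whether the MIZ-1WT mice carried the Cre. There was 1 ChIP library and 1 input library of each genotype, no peak list belonged to an input alone, and nothing below could be set against the spread between replicates. Intervals cover counting error only, and a difference between the lists compares 2 libraries rather than 2 genotypes. In bulk chromatin, binding in more cells and stronger binding per cell cannot be told apart, and peak lists hold no expression by which the cell type could be checked against its markers. By the estimate given with the processing, the MIZ-1DPOZ library was 1.34 times as deep. Its smallest pileup listed over the commonest background, 6 fragments, corresponds to 4.48 at MIZ-1WT depth, beside 5 in the MIZ-1WT list.

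Stress and antigen receptor signals reach JNK and p38 through a relay in which a MAP3K phosphorylates a MAP2K and the MAP2K phosphorylates the MAP kinase. In B cells the relay is used downstream of the B cell receptor, CD40 and Toll-like receptors, and its best known nuclear output is the AP-1 complex built from Jun and Fos proteins. DUSP1 closes the loop by removing the activating phosphates from p38 and JNK. Map3k1 is among the genes that the study names, and the question addressed by the peak lists is which of these genes MIZ-1 occupied with and without its POZ domain.

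Sequences around the summits, the points of highest fragment coverage, are shown for the genes on which the comparison turns. These are a shared promoter (Mapk8), the upstream kinase named by the study (Map3k1) and genes with a promoter peak in 1 list (Jun and Dusp1). Map3k7, another gene with a promoter peak in 1 list, is not shown. The others shown are a gene with separate peaks in the lists (Fos) and the strongest promoter of the wider pathway (Taok3). All are from mm10 and written 5′ to 3′ on the strand of the gene. They are centred on the summit, apart from the Taok3 stretch, which stops at the last base before the transcript start. The Jun and Dusp1 stretches reach 100 bp to either side of the summit. Those of Map3k1, Mapk8 and Fos are shorter, so that motif content is not comparable between the longer and the shorter stretches. Capitals mark matches to any of the 6 motifs searched on both strands, so that CCGCCC is the reverse complement of the GC box GGGCGG. The motifs were the E-box CACGTG, the GC box, the CCAAT box with those letters, the cyclic AMP response element TGACGTCA (CRE), the AP-1 site TGANTCA and the TATA box TATAAA, and none contains another.
Map3k1, MIZ-1WT (chr13:111808844-111808944, minus strand): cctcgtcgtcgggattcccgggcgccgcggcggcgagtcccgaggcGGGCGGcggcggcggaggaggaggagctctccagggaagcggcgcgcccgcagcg
Map3k1, MIZ-1DPOZ (chr13:111808504-111808604, minus strand): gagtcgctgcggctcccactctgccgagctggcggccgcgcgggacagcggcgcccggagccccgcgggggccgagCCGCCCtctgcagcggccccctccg
Mapk8, MIZ-1WT (chr14:33446796-33446896, minus strand): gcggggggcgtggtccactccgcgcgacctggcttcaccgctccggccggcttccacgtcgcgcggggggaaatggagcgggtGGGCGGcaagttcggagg
Mapk8, MIZ-1DPOZ (chr14:33446890-33446990, minus strand): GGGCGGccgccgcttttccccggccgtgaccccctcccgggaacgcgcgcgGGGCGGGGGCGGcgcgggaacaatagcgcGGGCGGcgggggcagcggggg
Jun, MIZ-1WT (chr4:95052653-95052853, minus strand): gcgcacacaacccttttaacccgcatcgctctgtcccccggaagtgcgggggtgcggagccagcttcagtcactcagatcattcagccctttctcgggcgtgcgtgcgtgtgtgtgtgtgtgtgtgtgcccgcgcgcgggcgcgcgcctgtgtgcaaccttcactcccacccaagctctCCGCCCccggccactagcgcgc
Fos, MIZ-1WT (chr12:85473413-85473513, plus strand): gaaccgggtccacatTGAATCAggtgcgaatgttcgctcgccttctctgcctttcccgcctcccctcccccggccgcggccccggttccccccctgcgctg
Fos, MIZ-1DPOZ (chr12:85472809-85472909, plus strand): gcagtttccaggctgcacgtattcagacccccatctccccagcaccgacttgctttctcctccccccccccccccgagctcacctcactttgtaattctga
Dusp1, MIZ-1DPOZ (chr17:26508605-26508805, minus strand): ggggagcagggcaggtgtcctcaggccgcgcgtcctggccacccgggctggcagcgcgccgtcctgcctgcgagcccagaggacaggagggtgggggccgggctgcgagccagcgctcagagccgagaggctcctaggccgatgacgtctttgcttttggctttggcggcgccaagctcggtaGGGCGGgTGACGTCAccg
Taok3, MIZ-1WT (chr5:117120057-117120128, plus strand): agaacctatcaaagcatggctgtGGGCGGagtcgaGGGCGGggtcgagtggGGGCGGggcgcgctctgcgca
At Mapk8 the stretch under the MIZ-1DPOZ summit held 4 GC boxes and that under the MIZ-1WT summit held 1, and the MIZ-1WT and MIZ-1DPOZ summits of Map3k1 each had a GC box close by. At Jun the summit stretch held a stretch of alternating guanine and thymine, and at Fos the MIZ-1DPOZ summit lay beside a run of cytosines. The Fos stretch under the MIZ-1WT summit carried an AP-1 site, and the Dusp1 stretch carried a CRE, the element read by CREB and ATF proteins. That CRE, and the GC boxes marked in the Jun and Dusp1 stretches, lay outside the listed peaks, between peak and transcript start. They also lay further from the summit than the shorter stretches of the other genes reach.

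Promoter peaks were listed for most members in each library. The MIZ-1WT library had one at 8 of 10 members, all but Map3k7 and Dusp1, beside 30.9% of protein-coding genes. MIZ-1DPOZ had one at 9 of 10, all but Jun, beside 48.7%. Both lists held a peak at 7 of 10, beside 26.6%, and 0 of 10 were without a peak in either list, beside 47.1%. All 10 members had at least 1 CpG-rich start, defined by a GC content of at least 55% and a ratio of observed to expected CpG of at least 0.6 within 500 bp of it. Among the 9563 protein-coding genes with such a start, the shares were 57.2% for MIZ-1WT, 78.6% for MIZ-1DPOZ and 51% for both lists. CpG-rich genes as a whole thus had promoter peaks more often than all genes did. Their share without a peak in either list was not computed, so that the 0 of 10 stands beside all protein-coding genes only. At a stricter −log10 q of at least 5, the members with a promoter peak were Mapk14, Jun and Fos in the MIZ-1WT list, 3 of 10 beside 9.77%. In the MIZ-1DPOZ list they were 7 of 10 beside 33.3%, and Map2k7 and Mapk8 were those that dropped out. With the MIZ-1DPOZ list held to the length of the MIZ-1WT list, 6 of 10 had a MIZ-1DPOZ promoter peak, beside 25.3%, and Map2k7, Mapk8 and Dusp1 dropped out. Both lists then held a peak at 5 of 10, beside 16.0%, and the MIZ-1WT count stayed at 8 of 10, beside 30.9%. The shares given for the stricter cutoff and for the shortened MIZ-1DPOZ list are of all protein-coding genes. Shares of genes with a CpG-rich start were not computed at these settings, so an excess over such genes cannot be read from them.

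**Figure D1:**
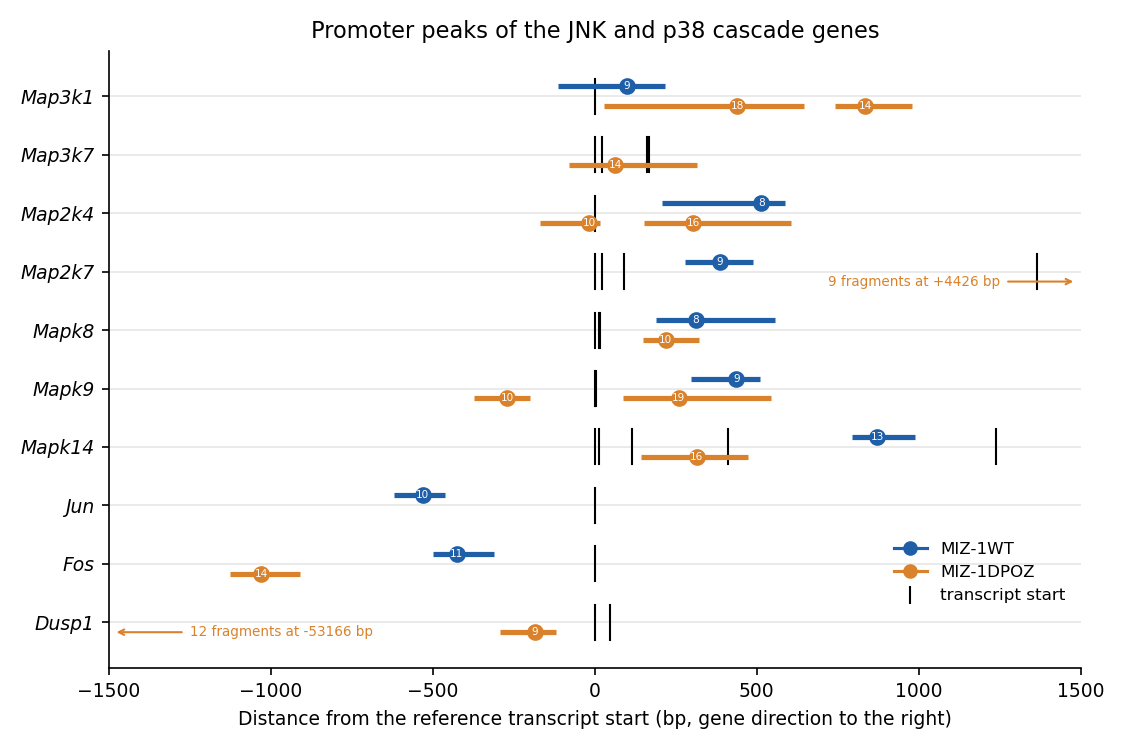
Peaks (bars) and summits (circles, with the number of fragments) of the 10 genes, by distance in bp from a reference transcript start, in the MIZ-1WT and MIZ-1DPOZ ChIP libraries, with black ticks for annotated starts and arrows for peaks outside the range. From this start, the MIZ-1WT summits of all 6 kinase genes with a peak lie to the right and those of Jun and Fos to the left.

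At 4 members the lists placed MIZ-1 on overlapping stretches of the promoter, and at 3 on separate ones. Peaks overlapped by at least 1 bp at 4 of the 7 members with a promoter peak in both lists (57.1%, exact 95% binomial interval 18.4 to 90.1), namely Map3k1, Map2k4, Mapk8 and Mapk9. Over all protein-coding genes with a promoter peak in both lists this held for 88.5%, a value inside that interval. At Map2k7, Mapk14 and Fos the peaks were apart, with summits 4040, 557 and 604 bp from each other. Counted by peaks, 4 of 8 MIZ-1WT promoter peaks of the members overlapped a MIZ-1DPOZ peak (50%, 15.7 to 84.3), beside 73.3% of all 7586 promoter peaks. Of the 13 MIZ-1DPOZ promoter peaks, 4 overlapped a MIZ-1WT peak (30.8%, 9.09 to 61.4), beside 41.2% of 13153. More than 1 promoter peak was listed for 4 of 9 members with one in the MIZ-1DPOZ list (Map3k1, Map2k4, Mapk9 and Dusp1), beside 27.3% of such protein-coding genes, and for 0 of 8 in the MIZ-1WT list, beside 19.5%.

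Map3k1 encodes MEKK1, which feeds mainly into the JNK branch. Its single start lies at position 111808993 of chromosome 13 on the minus strand. The MIZ-1WT peak (chr13:111808777-111809108) covered that start, with its summit 99 bp downstream in coding sequence, 9 fragments at the summit, a fold enrichment of 4.64 over background and a −log10 q of 3.28. The stronger MIZ-1DPOZ peak (chr13:111808348-111808965) had its summit 439 bp downstream, also in coding sequence, with 18 fragments, a fold of 5.91 and a −log10 q of 8.58. The peaks shared 189 bp and their summits were 340 bp apart. A further MIZ-1DPOZ peak with 14 fragments had its summit 835 bp downstream in an intron, and another with 11 fragments lay 38212 bp downstream in an intron. The ratio of the strongest MIZ-1DPOZ to the MIZ-1WT pileup, scaled for depth, was 1.49 (95% interval 0.636 to 3.77), an interval that includes no difference.

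Map3k7 encodes TAK1, the kinase that links receptor ubiquitin signals to JNK, p38 and NF-κB. It had no MIZ-1WT peak at the promoter or in the gene, and the nearest MIZ-1WT summit was 10.1 kb from its first start. The MIZ-1DPOZ list had a peak across the start (chr4:31964018-31964412) with 14 fragments, a fold of 6.39 and a −log10 q of 7.89, and its summit lay 62 bp downstream of the first of 4 starts, in untranslated sequence. At the depth of the MIZ-1WT library those 14 fragments correspond to 10.4 (95% interval 5.71 to 17.5), while the smallest pileup listed over the commonest background in the MIZ-1WT library was 5. Whether a peak of that height would have been listed in the MIZ-1WT library was not tested.

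Map2k4 and Map2k7 encode the MAP2Ks that activate JNK (MKK4 and MKK7), and MKK4 can also act on p38. At Map2k4 (start at 65788297 on chromosome 11, minus strand) the MIZ-1WT peak (chr11:65787711-65788091) had 8 fragments, a fold of 4.84 and a −log10 q of 3.28, with its summit in an intron 514 bp after the start. It lay wholly within the MIZ-1DPOZ peak (chr11:65787693-65788146), which had 16 fragments, a fold of 6.88 and a −log10 q of 9.40, with its summit 210 bp nearer to the start. This was the 1 member pair in which each peak covered at least 50% of the other. A separate MIZ-1DPOZ peak with 10 fragments straddled the start itself, with its summit 18 bp upstream, and the depth-scaled ratio of the strongest peaks was 1.49 (0.602 to 4.03).

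At Map2k7 the peaks belonged to different starts. The MIZ-1WT peak (chr8:4239017-4239227) had 9 fragments, a fold of 5.38 and a −log10 q of 4.14, with its summit in an intron 386 bp after the first start. That summit is nearer to a start of the overlapping protein-coding gene Gm49320 than to any start of Map2k7. The MIZ-1DPOZ peak (chr8:4243072-4243244) lay 98 bp before an internal start and 4426 bp after the first, with 9 fragments, a fold of 3.53 and a −log10 q of 2.44, the lowest value among the members' strongest promoter peaks. The ratio was 0.746 (0.262 to 2.12), between places that do not overlap.

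Mapk8 and Mapk9 encode the JNK1 and JNK2 kinases, and Mapk14 encodes p38α. At Mapk8 (first start at 33447158 on chromosome 14, minus strand) the MIZ-1WT peak (chr14:33446601-33446969) had 8 fragments, a fold of 4.84 and a −log10 q of 3.28. The MIZ-1DPOZ peak (chr14:33446836-33447008) had 10 fragments, a fold of 4.68 and a −log10 q of 4.19. Both summits were intronic, 312 and 218 bp after the first start, and their distance of 94 bp was the smallest of the 7 pairs. The depth-scaled ratio was 0.932 (0.331 to 2.72).

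Mapk9 had the strongest promoter peak of any member. Its MIZ-1DPOZ peak (chr11:49846838-49847295) had 19 fragments, a fold of 8.52 and a −log10 q of 13.3, with the summit 259 bp after the first start, and overlapped over 215 bp a MIZ-1WT peak (chr11:49847047-49847261) with 9 fragments, a fold of 5.34 and a −log10 q of 4.14. The ratio of 1.57 (0.679 to 3.95) was the highest of the 7 members with a peak in both lists, and its interval too included 1. A second MIZ-1DPOZ peak with 10 fragments lay upstream, with its summit 271 bp before the start. Mapk14 had the strongest MIZ-1WT peak of the members, with 13 fragments, a fold of 6.45 and a −log10 q of 6.62 in a peak (chr17:28692123-28692318) whose summit lay 871 bp after the first start and 368 bp before the last of 5 starts. The MIZ-1DPOZ peak (chr17:28691472-28691803) had 16 fragments, a fold of 6.52 and a −log10 q of 8.83 and lay between these starts, with its summit 314 bp after the first. The ratio was 0.918 (0.414 to 2.07), between peaks that do not overlap.

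Jun was the member whose promoter peak was found with MIZ-1WT alone. That peak (chr4:95052685-95052843) had 10 fragments, a fold of 5.91 and a −log10 q of 5.05, with its summit 531 bp upstream of the single start. The nearest MIZ-1DPOZ summit was 27.9 kb from the Jun start. At MIZ-1DPOZ depth the 10 fragments correspond to 13.4 (6.43 to 24.7), and the smallest pileup listed over the commonest background in that library was 6, but whether such a peak would have been listed there was not tested. Fos had a peak in each list, both upstream. The MIZ-1WT peak (chr12:85473390-85473577) had 11 fragments, a fold of 6.45, a −log10 q of 6.03 and a summit 427 bp before the start. The MIZ-1DPOZ peak (chr12:85472764-85472980) had 14 fragments, a fold of 5.87, a −log10 q of 7.09 and a summit 1031 bp before it. The ratio was 0.949 (0.400 to 2.31), between peaks that do not overlap.

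Dusp1 had promoter peaks with MIZ-1DPOZ alone, 1 at each end of a gene model that includes a long transcript. The peak at the usual starts (chr17:26508640-26508812) had 9 fragments, a fold of 4.26 and a −log10 q of 3.37, with its summit 186 bp upstream of the start at 26508519. The other (chr17:26561388-26561838) had 12 fragments, a fold of 5.23 and a −log10 q of 5.51, and lay 443 bp after the start of 1 long transcript, which is 639 bp from the start of the neighbouring gene Ergic1. Which of these genes that peak belongs to cannot be told apart. The nearest MIZ-1WT summit was 62.2 kb from the usual start and 8.54 kb from the long transcript's start. At MIZ-1WT depth the peak at the usual start corresponds to 6.71 fragments (3.07 to 12.7) and the other to 8.95 (4.62 to 15.6). Both intervals reach below 5, the smallest pileup listed over the commonest background in the MIZ-1WT library. Whether peaks of these heights would have been listed there was not tested.

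**Figure D2:**
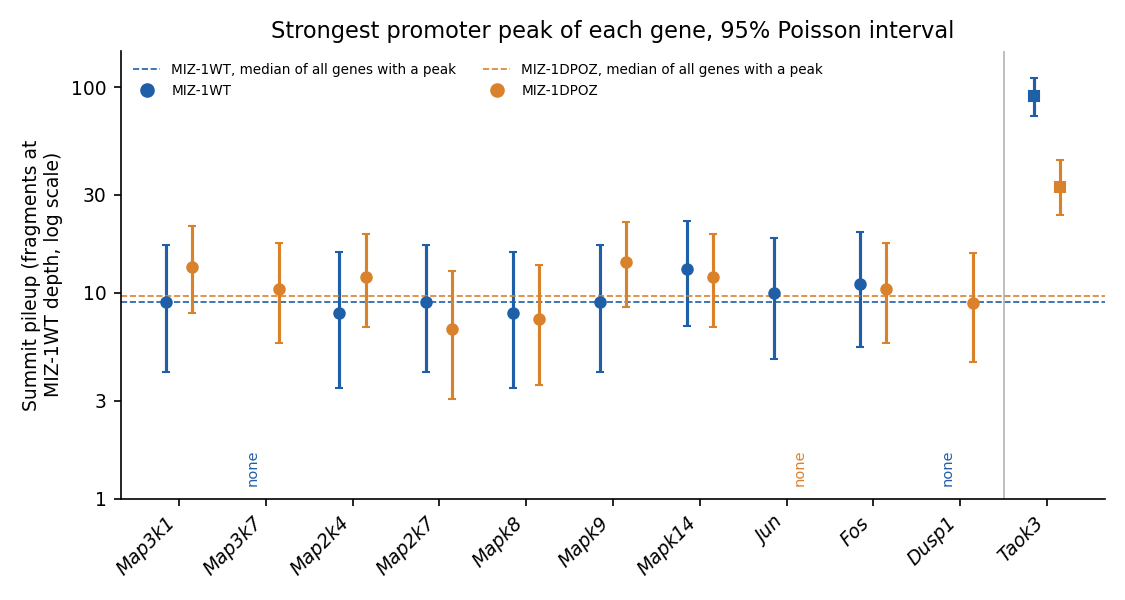
Fragments at the summit of the strongest promoter peak of each gene, on a log axis and scaled to MIZ-1WT depth, with exact 95% Poisson intervals; dashed lines give the median over all protein-coding genes with a promoter peak, and "none" marks a gene without one. The members lie close to the dashed lines and their intervals overlap between the libraries, whereas Taok3, another MAP3K gene, lies well above them with 90 MIZ-1WT fragments.

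In height the members' peaks were ordinary for promoters in these lists. The strongest promoter peak had a median of 9 fragments in the MIZ-1WT list (range 8 to 13 over 8 members), the same as the median of 9 over the 6777 protein-coding genes with one. In the MIZ-1DPOZ list it had a median of 14 (9 to 19 over 9 members), beside 13 over 10684 genes, and the median −log10 q was 7.89 beside 5.96. By −log10 q the members ran from percentile 32.8 (Map3k1, Map2k4 and Mapk8, which were tied) to 87.7 (Mapk14) among genes with a MIZ-1WT promoter peak. Among genes with a MIZ-1DPOZ promoter peak they ran from 1.96 (Map2k7) and 22.4 (Mapk8) to 83.4 (Map2k4) and 95.3 (Mapk9). The order of the kinases and AP-1 genes by −log10 q differed between the lists. Mapk14, Fos and Jun led in the MIZ-1WT list, and Mapk9, Map2k4 and Mapk14 in the MIZ-1DPOZ list. By fragments in the MIZ-1DPOZ list, Map3k1 (18) came after Mapk9 (19) and before Map2k4 and Mapk14 (16 each). The Poisson intervals of neighbours in either order overlapped. Over the 7 members with a peak in both lists, the depth-scaled ratio of MIZ-1DPOZ to MIZ-1WT had a median of 0.949 (0.746 to 1.57), beside 1.08 over 5848 genes, and all 7 intervals included 1. At Map2k7 (0.746), Mapk14 (0.918) and Fos (0.949) the ratio compared peaks that do not overlap. At the members with overlapping peaks it was 0.932 (Mapk8), 1.49 (Map3k1), 1.49 (Map2k4) and 1.57 (Mapk9).

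The side of the start on which summits lay depended on the start taken. Taking the first start of each gene, or the usual start of Dusp1, 6 of 6 MIZ-1WT promoter summits of kinase genes lay downstream of it, and the summits of Jun and Fos, 2 of 2, lay upstream. In the MIZ-1DPOZ list 8 of 10 promoter summits of kinase genes were downstream, that of Fos was upstream, and the Map2k4 and Mapk9 genes each had 1 on either side. Measured from the nearest start, 5 of 8 MIZ-1WT promoter summits of the members (62.5%) were downstream, beside 66.2% of all promoter summits of protein-coding genes, and the Mapk14 summit was then upstream with those of Jun and Fos. By the same measure 7 of 13 MIZ-1DPOZ summits were downstream (53.8%), beside 69.1%, of which 6 were among the 10 of kinase genes.

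Sequence at the summits was GC-rich and unique in the genome. Within 100 bp of the MIZ-1WT promoter summits the median GC content was 72.9% (64.7 to 80.1) with a median of 19 CpG, beside 73.6% and 23 over all promoter peaks. At the MIZ-1DPOZ promoter summits it was 76.6% (59.7 to 81.6) with 28 CpG, beside 70.6% and 20. The Map3k1 summit of MIZ-1WT had the most CpG of the members' peaks, 40, and the Map2k7 peak of MIZ-1DPOZ at the internal start had the fewest, 3, of their promoter peaks. All 8 and all 13 members' promoter summits were single-copy sequence, and in none did repeat-masked bases exceed 50%. Over all promoter peaks 96.0% and 94.5% were single-copy.

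**Figure D3:**
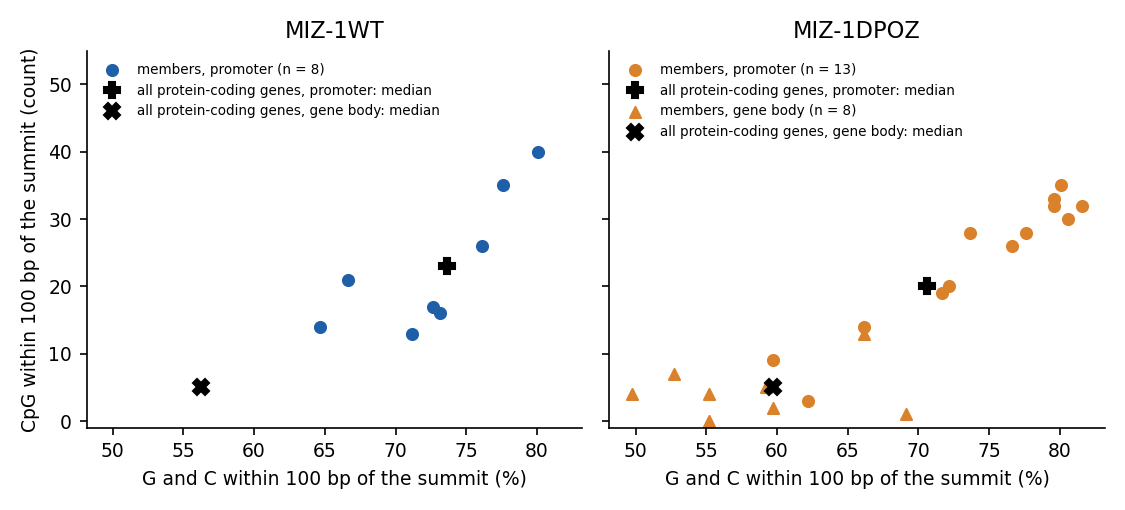
GC content (%) and CpG count within 100 bp of the summit for each peak of the 10 genes in the MIZ-1WT (left) and MIZ-1DPOZ (right) lists, with black crosses for the medians over all protein-coding genes. Promoter peaks range from 59.7% to 81.6% GC across the lists, and the MIZ-1DPOZ gene body peaks lie lower, around a median of 57.2%.

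The GC box was the commonest of the searched motifs, as it was at promoter peaks in general. It stood within 100 bp of 6 of 8 MIZ-1WT promoter summits (75%, beside 65.1% of all) and of 9 of 13 MIZ-1DPOZ ones (69.2%, beside 56.2%). An AP-1 site was found within 100 bp of 1 MIZ-1WT summit, that of Fos (1.33% of all), and a CRE within 100 bp of 1 MIZ-1DPOZ summit, that of Dusp1 (0.502% of all). The Dusp1 CRE lay outside the listed peak. No E-box, CCAAT box or TATA box was found at a member's promoter summit, where 4.63%, 9.29% and 0.936% of all MIZ-1WT promoter summits held one. In the RefSeq promoter windows (GRCm38.p6, 250 bases before to 50 after a start), which matched all 10 members with 14 windows, 9 of the 14 windows held a GC box (64.3%), beside 35.7% of 32851 windows, and these belonged to 9 members. Map2k4 was the member without it there, although both of its overlapping peaks had one near the summit. All 10 members have a CpG-rich start, and the share among windows at CpG-rich starts was not computed. An E-box was found in 1 of the 14 windows, that of Dusp1, beside 7.15% of all windows.

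Inside the genes, peaks of the members were listed with MIZ-1DPOZ alone, 8 in the whole list, but 1 when it was held to the length of the MIZ-1WT list and 2 at −log10 q of at least 5. Outside promoters the members held no MIZ-1WT peak, over a full gene length of 460 kb that includes the promoter parts of the genes. This allows up to 0.652 peaks per 100 kb by a floor of 3 counts, or 0.801 by the exact 95% Poisson interval. Over all protein-coding genes, counted in the same way, there were 0.965 per 100 kb. None of the 10 members had such a peak, where 24.2% of protein-coding genes did. The MIZ-1DPOZ list had 8 peaks, or 1.74 per 100 kb (exact 95% Poisson interval 0.750 to 3.42), beside 2.48 over all protein-coding genes, in 3 of 10 members, beside 42.7%. These were 1 in Map3k1, 4 in Map3k7 and 3 in Dusp1, with 8 to 13 fragments each, and 0 of 8 overlapped a MIZ-1WT peak. The strongest of the 4 in Map3k7 (chr4:31983982-31984222) was wholly repeat-masked within 100 bp of its summit, and the stretches there occur a median of 6409 times in the genome. The 3 in Dusp1 lay in the long transcript only, and 1 of them was also fully repeat-masked. Map2k4, the longest member at 100.1 kb, had none.

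The rest of the pathway was read through a list of 47 other kinase, scaffold, phosphatase and transcription factor genes, of which 40 had a CpG-rich start. Promoter peaks were listed for 30 of 47 in MIZ-1WT (63.8%) and 38 in MIZ-1DPOZ (80.9%), with 27 in both (57.4%). These shares lay near those of protein-coding genes with a CpG-rich start (57.2%, 78.6% and 51%) and above those of all protein-coding genes (30.9%, 48.7% and 26.6%). In 24 of the 27 the peaks overlapped (88.9%, 70.8 to 97.6), beside 88.5%. By role, 11 of 14 other MAP3K genes had a MIZ-1WT peak and 13 a MIZ-1DPOZ peak. The kinases downstream of the MAP kinases, such as MK2, had 6 of 7 in each list. The other AP-1 and ATF genes had 2 of 8 in MIZ-1WT and 5 of 8 in MIZ-1DPOZ. Those without a promoter peak in either list were Map3k13, Map2k6, Dusp4, Fosb, Fosl1 and Batf, each of which had a gene body peak in at least 1 list. Map2k6, the gene of the p38 activator MKK6, had overlapping intronic peaks, with 38 fragments and a −log10 q of 36.7 in MIZ-1WT (chr11:110422177-110422424) and 18 fragments and 12.1 in MIZ-1DPOZ, and was singled out after its values were seen.

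**Figure D4:**
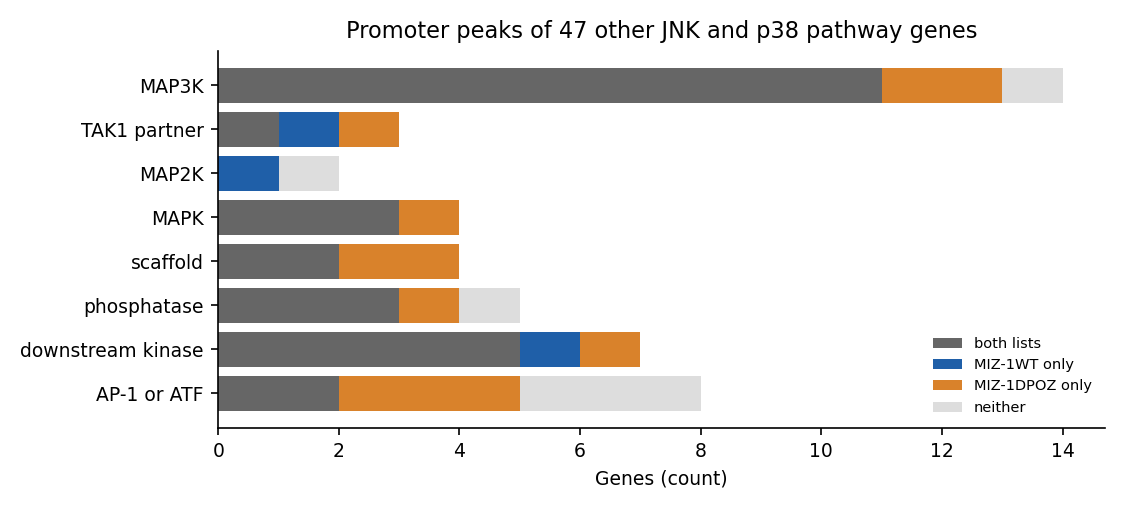
Number of the 47 other pathway genes with a promoter peak in both lists, in 1 list or in neither, by role. The bars for MAP3K genes (11 of 14) and downstream kinases (5 of 7) are mostly peaks in both lists, and 3 of 8 AP-1 or ATF genes have none.

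Taok3 stood apart from every member. It encodes a MAP3K of the TAO family that is known for its part in marginal zone B cell fate. The MIZ-1WT peak (chr5:117119857-117120303) had 90 fragments, a fold of 21.8 and a −log10 q of 90.4, with its summit 22 bp upstream of the first start. The MIZ-1DPOZ peak (chr5:117119877-117120486) overlapped it over 427 bp and had 44 fragments, a fold of 11.6 and a −log10 q of 32.6, with the summits 29 bp apart. The depth-scaled ratio at Taok3 was 0.365 (95% interval 0.248 to 0.529), while over the 5848 genes with a promoter peak in both lists the ratio ran from 0.186 to 3.66. Taok3 was named for the height of its peak, and the interval holds counting error only, so that nothing is read from it about the genotypes. Next with MIZ-1WT came Mapkapk2, the gene of MK2, with 12 fragments and a −log10 q of 7.06, and Jund, a Jun family gene, with 16 fragments and 7.04. Next with MIZ-1DPOZ came Tab3, the gene of a TAK1 adaptor, with 22 fragments and a −log10 q of 16.8 and no MIZ-1WT promoter peak. It was followed by Map3k11 with 31 fragments and 16.0, whose summit at -2124 bp lay before the promoter window, so that only the edge of the peak reached it.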

How the data were processed

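ChIP and input libraries of B220+ splenocytes from 1 MIZ-1WT and 1 MIZ-1DPOZ preparation were sequenced paired-end by the authors, who deposited 1 MACS2 peak list per ChIP library against mm10 (GRCm38). The submitters' processing notes name Bowtie2 2.2.6 and MACS2 2.1.0, while the study's methods name another aligner. The q cutoff and the treatment of duplicates are not given in the sources used here. The deposited lists give a fold enrichment at the summit, −log10 p and q values and a score that was not analysed. No RNA levels were analysed here.

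Fold and −log10 p were solved jointly for the fragment pileup and background at each summit, which gave whole pileups for 99.97% and 99.99% of peaks (tolerance 1e-04). The procedure was tested on simulated data. The depth ratio was that of the commonest background divided by the smallest peak width in each list (0.860 over 148 bp, 1.35 over 173 bp). Promoters followed GENCODE vM21 basic transcripts. Overlap was at least 1 bp, and copy number was the median genomic count of 5 stretches of 50 bases around the summit. Intervals are exact (Poisson or Clopper-Pearson, 95%). No test was made, since each genotype had 1 ChIP library. All 10 genes are described, with, from the other pathway genes, the 3 strongest promoters of each list and those without a promoter peak. The genes and lists were chosen with earlier results of these data known. Alternatives were other peak cutoffs, equal list lengths, promoter and overlap definitions and background scaling. Python 3.11.15, numpy 2.4.6, pandas 2.3.3 and scipy 1.17.1 were used.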

Additional observations from a re-analysis of the deposited data

How the results depend on the processing

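Of 74 alternative values, 54 stayed within 1.5 times the reported count or inside its interval. Some of these 54 could not move. Another set of background genes leaves a member count as it is, and equal list lengths leave the MIZ-1WT promoter counts untouched. The MIZ-1WT gene body count was already 0 and could not fall. The other 20 values follow. At −log10 q of at least 5, members with a promoter peak numbered 3 in MIZ-1WT and 2 in both lists, with 0 overlapping. At a fold of at least 5 they numbered 5, 3 and 1. MIZ-1DPOZ gene body peaks fell from 8 to 2 at −log10 q of at least 5, to 1 with both lists held to equal length, and to 5 without the longest Dusp1 transcript, an alternative chosen after seeing the data. The share of members' MIZ-1WT peaks overlapping the other list went from 50% to 12.5% under a reciprocal overlap of at least 50%, to 12.5% with summits within 100 bp, and to 0% at −log10 q of at least 5. Over the members' MIZ-1DPOZ promoter and gene body peaks together, the share was 19.0% (4 of 21). It became 4.76%, 4.76% and 0%, and 42.9% (3 of 7) with equal list lengths. Of the 47 other pathway genes, 9 had a MIZ-1WT peak and 4 had peaks in both lists at −log10 q of at least 5. With equal list lengths 23 had a MIZ-1DPOZ peak and 16 had peaks in both. Cutoffs and equal list lengths use fewer peaks by construction, and the stricter overlap rules used the same peaks. No paired analysis was possible because there was 1 ChIP library of each genotype. With 8 to 19 fragments per strongest peak, no ratio of a member could be told from 1 at this depth.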
